A study of Homo sapiens with 6 samples.

Results

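Expression of 48 genes of mitosis and the G2/M phase was examined in IGFBP2 overexpression and control MDAMB468 cells. The members are the listed genes of mitotic entry, the spindle, the kinetochore, the spindle checkpoint, cytokinesis and mitotic chromosomes, chosen by name, and all 48 were found among the 10487 genes of the expression table. MDAMB468 cells come from a human breast carcinoma that lacks hormone receptors and HER2 amplification, called triple negative. The control cells were labelled as wild type, and the IGFBP2 overexpression cells stably carry a catalytically inactive Cas9 fused to an activator domain together with a guide RNA directed to IGFBP2. Neither group was treated, and each group had 3 biological replicates of bulk RNA sequenced from the 3' end of transcripts. The overexpression cells were transduced with lentivirus, selected and sorted, and whether the control cells went through the same steps was not given in the sources used here, so an effect of IGFBP2 and one of the activator or of selection cannot be told apart.

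IGFBP2 itself, which codes for a secreted binding protein of insulin-like growth factors, was present at 93.5, 87.3 and 136 CPM (reads of a gene relative to the library's total, as scaled by the authors) in the control libraries and at 566, 1176 and 498 CPM in the overexpression libraries, above every control library. The 6 libraries held 2497353 to 4579587 reads on the listed genes, and single members held 28 to 6022 reads in a library. The epithelial and basal markers EPCAM, KRT19, EGFR and KRT5 were expressed in every library, and ERBB2 was between 15.8 and 37.0 CPM. The basal keratin KRT14 was between 6.24 and 18.9 CPM, and KRT6B was between 6.47 and 14.4 CPM in control and between 22.3 and 39.4 CPM in overexpression libraries. The stromal marker COL1A1 was between 9.36 and 27.5 CPM, and the hormone receptors ESR1 and PGR and the markers of other cells PTPRC, CD3E, COL3A1 and PECAM1 were not among the listed genes.

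The members act in the last stages of the cell cycle. Cyclin B and its kinase CDK1 drive entry into mitosis, the spindle and its motors align the chromosomes at their kinetochores, the checkpoint delays anaphase until all are attached, and the contractile ring then splits the cell. Transcripts of most of these genes build up in G2 and M phase and are low in resting cells, so in growing tumour cells their summed level is widely read as a sign of how many cells are dividing. In bulk RNA, fewer cells in mitosis and less of each transcript per cell cannot be told apart.

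None of the 48 mitosis genes differed between IGFBP2 overexpression and control cells at an adjusted p under 0.05 (limma, Benjamini-Hochberg adjustment over all genes), where 0.629% of all genes did, 0.429% higher and 0.200% lower in overexpression cells. The lowest adjusted p among the members was 0.25, for ASPM, and the highest was 0.995, for UBE2C. At an unadjusted p under 0.05 there were 2 members, ASPM and CENPF, both lower in overexpression cells (4.17% of the members, against 13.0% of all genes in either direction, 6.12% lower and 6.88% higher). With limma voom on reads recovered from the values, 0 members passed (1.34% of all genes), and ASPM, HMMR, KIF20B, CENPF and MKI67, all lower in overexpression cells, had an unadjusted p under 0.05 (13.3% of all genes). The paper, which used edgeR, reported many more changed genes in these cells than limma or limma voom called here. The lack of calls among the members therefore holds for the tests run here, and edgeR was not among them. The fitted log2 fold change was below 0 for 31 members and above 0 for 17 (64.6% below 0, against 50% of all genes), and its median was -0.096, against 0.000098 for all genes. When single libraries were left out, the sign of that median changed only without control replicate 1. Without control replicate 2 the median was -0.26 with 43 members below 0 (89.6%, against 50.5% of all genes in that fit). In that fit 7 members, ASPM, DLGAP5, KIF20B, KIF14, CENPF, ANLN and MKI67, were lower at an unadjusted p under 0.05 (14.6%, against 5.48%) and none passed the threshold. Without control replicate 1 the median was 0.047 with 19 members below 0 (39.6%, against 50.5%). With control replicate 3 left out it was -0.019, and with 1 overexpression library left out it was between -0.12 and -0.056.

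**Figure D1:**
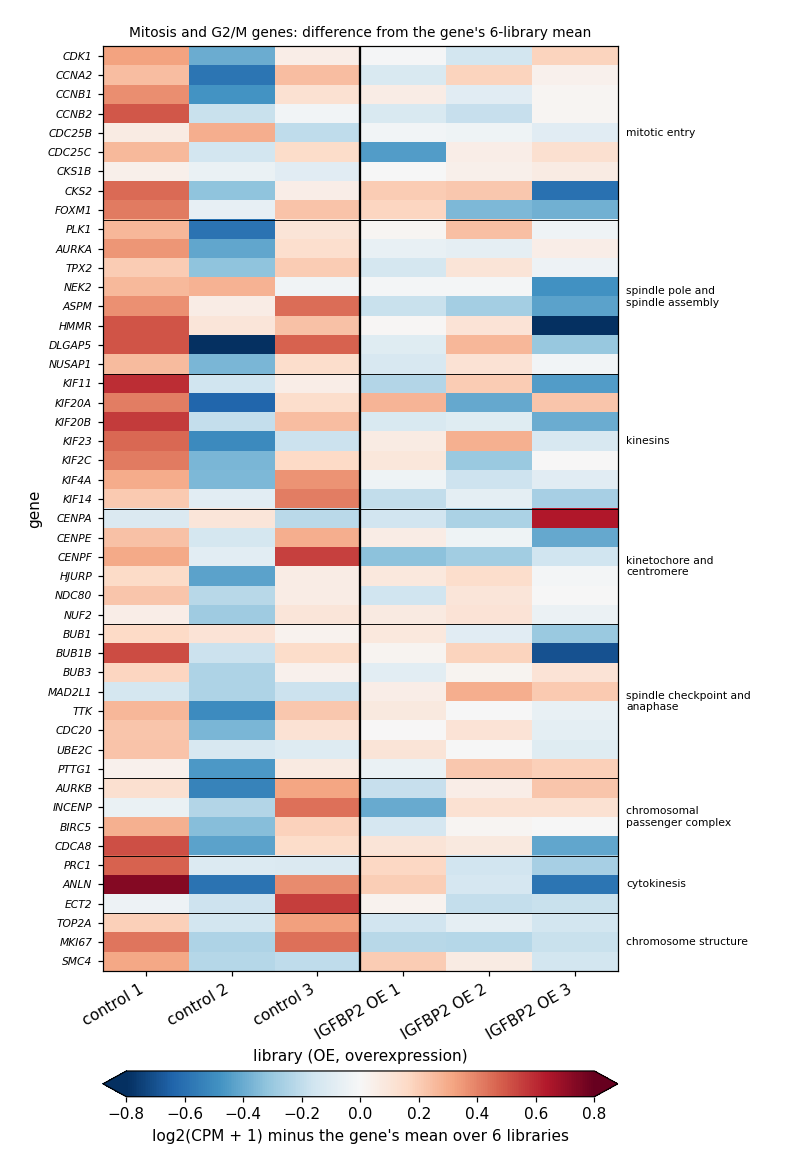
Each row is a gene, grouped by role, each column a library (OE, overexpression), and the colour the difference of log2(CPM + 1) from the gene's mean over the 6 libraries. The widest contrast lies inside the control group, where replicate 2 was the lowest of the 3 controls for 42 of the 48 genes and replicate 1 the highest for 31.

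The members differed more among the control libraries than between the groups, as did most genes of the table. Their mean log2(CPM + 1) was 6.96, 6.41 and 6.82 in control replicates 1, 2 and 3 and 6.64, 6.66 and 6.54 in overexpression replicates 1, 2 and 3. The mean over libraries was 6.73 ± 0.28 (SD, n = 3) in control and 6.61 ± 0.065 (SD, n = 3) in overexpression cells, and the groups overlapped. Expressed as a share of the reads on all listed genes, the 48 members took 0.891, 0.661 and 0.846% in the control libraries and 0.732, 0.755 and 0.706% in the overexpression libraries. The mean over all 10487 genes was between 5.09 and 5.14 in the 6 libraries.

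Control replicate 2 was the library in which mitosis genes were low. It was the lowest of the 3 controls for 42 members (87.5%, against 32.4% of all genes) and the lowest of all 6 libraries for 27 (56.2%, against 18.0%). Control replicate 1 stood at the other end, as the highest control for 31 members (64.6%, against 31.6%) and the highest of all 6 libraries for 29 (60.4%, against 16.9%). Both held for 28 members, from CDK1, CCNB1 and PLK1 to the checkpoint genes TTK and CDC20 (58.3%, against 15.9%). Replicate 1 exceeded replicate 2 in 45 members, the exceptions being CDC25B, NEK2 and CENPA, with a median difference of 0.58 on the log2 scale against -0.022 for all genes. The widest such difference was 1.34, for DLGAP5. This ordering of the control libraries was noticed in the data and is given as a description.

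The overexpression libraries lay closer together. The range of log2(CPM + 1) within a group had a median over members of 0.62 in control and 0.27 in overexpression cells, against 0.52 and 0.41 for all genes. The control range was the wider for 38 members (79.2%, against 61.0% of all genes). For 43 members it was also wider than the difference between the group means (89.6%, against 80.5%), and the other 5 were NEK2, ASPM, HMMR, BUB1 and MAD2L1. Overexpression replicate 3 was the lowest of its group for 24 members, 50% of them, against 36.7% of all genes. Why control replicates 1 and 2 stood apart was not tested.

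**Figure D2:**
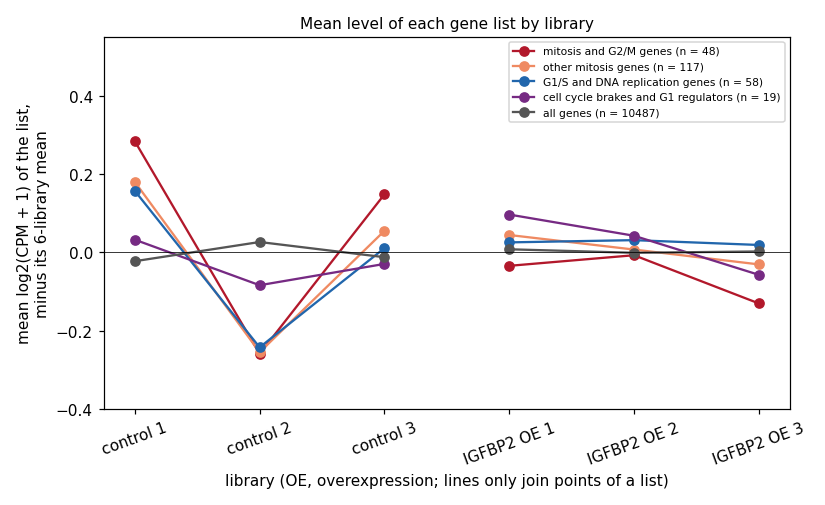
The mean log2(CPM + 1) of each gene list in each library, minus the list's own mean over the 6 libraries (OE, overexpression). The 48 mitosis genes, the 117 other mitosis genes and the 58 genes of G1/S and DNA replication all dipped in control replicate 2. The 19 brakes and G1 regulators were also lowest there, by a small margin. The mean over all genes was between 5.09 and 5.14 throughout.

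The promoters of the members are shown as a description, and whether their motifs bear on the variation between libraries was not tested. Windows from 250 bases before to 50 bases after the gene start (RefSeq, GRCh38.p14) were found for 41 members in 52 windows, and FOXM1, AURKA, TPX2, BUB3, TTK, UBE2C and BIRC5 had no entry. Many G2/M promoters share the cell cycle homology region, the site at which the repressive DREAM complex and the activating MYB and FOXM1 complexes assemble, and CCAAT boxes, which bind NF-Y. The first was searched as TTTGAA or TTCGAA and the second as CCAAT, each on both strands. TTTGAA or TTCGAA was present in 36 of the 52 windows (69.2%, against 16.4% of all 35116 windows) and CCAAT in 39 (75.0%, against 34.6%). Both were present in 30 windows (57.7%, against 6.38%), and in 2 windows matches of the motifs shared letters. Matches to the first gathered around the start, with 12 and 9 in the 25-base bins just before it and 9 and 4 in those after it, and 18 windows held 1 that began 50 to 1 bases before it (34.6%, against 2.73%), an interval chosen after the positions were seen.

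Promoters of 7 members are printed below as the 100 bases before the start, read in the direction of the gene, with matches to either motif on either strand in capitals. CCNB2 (chr15:59105046-59105145, plus strand), PLK1 (chr16:23678789-23678888, plus strand), KIF11 (chr10:92593030-92593129, plus strand) and CKS2 (chr9:89311095-89311194, plus strand) show the arrangement with CCAAT boxes upstream and the homology region 29 or 28 bases before the start. ASPM (chr1:197146670-197146769, minus strand) and CENPF (chr1:214603095-214603194, plus strand), the members with the smallest p, hold CCAAT but no TTTGAA or TTCGAA in this stretch. Other forms of the homology region were not searched, so a promoter without these strings may still hold the region. CCNB1 (chr5:69167050-69167149, plus strand) has no TTTGAA or TTCGAA in its whole window.
CCNB2: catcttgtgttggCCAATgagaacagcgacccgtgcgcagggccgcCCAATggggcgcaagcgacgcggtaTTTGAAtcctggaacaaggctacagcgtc
PLK1: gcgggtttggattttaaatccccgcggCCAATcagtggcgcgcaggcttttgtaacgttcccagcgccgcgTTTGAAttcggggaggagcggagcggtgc
KIF11: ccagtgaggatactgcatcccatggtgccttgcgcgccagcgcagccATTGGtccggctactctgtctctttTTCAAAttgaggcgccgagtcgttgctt
CKS2: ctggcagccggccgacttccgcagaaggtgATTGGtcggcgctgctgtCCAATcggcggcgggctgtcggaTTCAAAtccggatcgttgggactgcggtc
ASPM: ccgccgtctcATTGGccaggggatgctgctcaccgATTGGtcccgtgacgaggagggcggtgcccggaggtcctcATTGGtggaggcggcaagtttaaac
CENPF: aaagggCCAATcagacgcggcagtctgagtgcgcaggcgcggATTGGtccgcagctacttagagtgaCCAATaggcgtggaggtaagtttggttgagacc
CCNB1: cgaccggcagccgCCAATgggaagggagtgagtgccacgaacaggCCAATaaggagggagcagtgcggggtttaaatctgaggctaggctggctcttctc

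In ASPM the nearest match to TTTGAA or TTCGAA began 113 bases before the start and in CENPF 40 bases after it, outside the printed stretch. The members with a window but without such a match were CCNA2, CCNB1, NEK2, KIF20A, KIF2C, CENPE, PTTG1 and AURKB, and KIF2C and CENPE held neither motif. A match is a string of letters only, and binding was not measured.

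**Figure D3:**
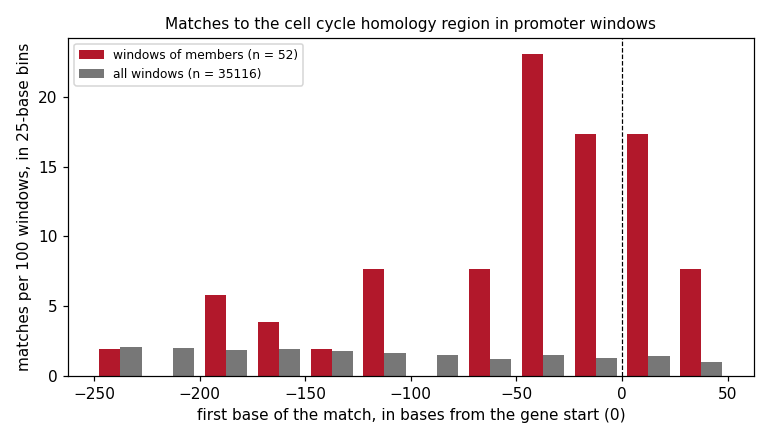
Matches to TTTGAA or TTCGAA on either strand per 100 promoter windows, in bins of 25 bases, against the distance of the match's first base from the gene start, for the 52 windows of the members and all 35116 windows. The members' matches gather on both sides of the start, with 12, 9, 9 and 4 matches in the 4 bins from 50 bases before to 50 bases after it.

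Of the 9 genes of mitotic entry, 6 had a fitted fold change below 0 and 3 above, with a median log2 fold change of -0.10 and a range from -0.38 to 0.070. CDK1 (ENSG00000170312, chr10:60778331-60794852 on GRCh38), the kinase that triggers mitosis, was measured at 249.5, 151 and 207 CPM in control replicates 1, 2 and 3 and at 198, 179 and 226 CPM in overexpression replicates 1, 2 and 3. The overexpression values all fell inside the control range, and the log2 fold change was 0.012 (95% interval -0.50 to 0.53, adjusted p = 0.986 from limma). CCNB1 (ENSG00000134057, chr5:69167135-69178245 on GRCh38), cyclin B1, its partner, was at 140.3, 77.3 and 118 CPM in control and 113, 102 and 109 CPM in overexpression cells, again inside the control range, with a log2 fold change of -0.0093 (95% interval -0.55 to 0.53).

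The most negative fold change of this group was that of FOXM1, the transcription factor that activates many G2/M genes. FOXM1 was at 127, 91.0 and 112 CPM in control and 108, 73.9 and 72.6 CPM in overexpression cells, for a log2 fold change of -0.38 (95% interval -0.90 to 0.13, adjusted p = 0.524 from limma). Overexpression replicates 2 and 3 were below every control, and replicate 1 was between the controls. CKS1B and CKS2, a pair of close paralogs that bind CDK1 and help it choose substrates, did not share a pattern over the libraries. CKS1B was nearly level, at 465, 435 and 425 CPM in control and 452, 466 and 472 CPM in overexpression cells, with a log2 fold change of 0.07 (95% interval -0.31 to 0.45). CKS2 was at 87.9, 50.9 and 66.3 CPM in control and 73.7, 74.6 and 42.0 CPM in overexpression cells, and overexpression replicate 3 was its lowest library. The other cyclins gave log2 fold changes of 0.06 for CCNA2, cyclin A2, and -0.20 for CCNB2, cyclin B2. CDC25B and CDC25C, the phosphatases that switch CDK1 on, had values of -0.10 and -0.17, and CDC25B, like NEK2 and CENPA, was highest of the controls in replicate 2, at 311, 362 and 257 CPM in the controls. CKS1B has 7 named pseudogene copies in the annotation, so its count is uncertain where reads could be shared.

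Of the 8 genes of the spindle pole and spindle assembly, 7 had a fold change below 0, with a median of -0.072. ASPM (ENSG00000066279, chr1:197084121-197146694 on GRCh38), which codes for a protein that focuses microtubules at spindle poles, had the smallest p of all members. It was at 171, 138 and 181 CPM in control replicates 1, 2 and 3 and at 117, 109 and 97.9 CPM in overexpression replicates 1, 2 and 3. Every overexpression library was below every control library, and 3 members in all had groups that did not overlap (6.25%, against 18.0% of all genes), 2 of them with overexpression below (4.17%, against 8.61%). The log2 fold change of ASPM was -0.58 (95% interval -1.02 to -0.15), with an unadjusted p of 0.0137 and an adjusted p of 0.25 from limma. The exact permutation test, two-sided over the 6 libraries, gave p = 0.1 for ASPM, the smallest it can give with 3 against 3. The fold change of ASPM stayed between -0.70 and -0.51 when any 1 library was left out.

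The kinases that build the spindle showed no such separation. PLK1, the kinase of centrosome maturation and mitotic entry, was at 253, 139.6 and 227 CPM in control and 213, 249 and 206 CPM in overexpression cells. AURKA, the kinase of spindle poles, was at 213, 124 and 182 CPM in control and 159, 158 and 172 CPM in overexpression cells. For both genes the 3 overexpression values lay within the span of the controls, and the log2 fold changes were 0.15 (adjusted p = 0.854 from limma) for PLK1 and -0.049 (adjusted p = 0.956) for AURKA. HMMR, a microtubule-binding protein of the spindle, had a log2 fold change of -0.56 (adjusted p = 0.464) and rested mostly on overexpression replicate 3, which was at 31.5 CPM against 62.4 and 66.8 CPM in replicates 1 and 2. Leaving out single libraries moved its fold change between -0.75 and, without overexpression replicate 3, -0.22. NEK2, a kinase of centrosome separation, was at 68.4, 69.3 and 55.8 CPM in control and 56.1, 56.2 and 40.4 CPM in overexpression cells (log2 fold change -0.34, adjusted p = 0.533 from limma), with overexpression replicates 1 and 2 slightly above control replicate 3. DLGAP5, which bundles microtubules near the chromosomes, had the widest range among the control libraries, at 46.6, 17.8 and 45.7 CPM in control and 30.4, 39.4 and 26.3 CPM in overexpression cells, for a log2 fold change of -0.091. TPX2, the activator of AURKA, and NUSAP1, which bundles microtubules, had values of -0.053 and -0.021.

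Of the 7 kinesins, the motors that slide and transport along microtubules, 5 had a fold change below 0, with a median of -0.19, and control replicate 2 was the lowest control for all 7. KIF20B, a motor of cytokinesis, was at 306, 182 and 247 CPM in control and 191, 194 and 157 CPM in overexpression cells. KIF14, which acts at the midbody, was at 61.3, 49.8 and 70.4 CPM in control and 46.0, 50.03 and 43.7 CPM in overexpression cells. In both genes the overexpression libraries overlapped control replicate 2 and no other control. The log2 fold changes were -0.41 (adjusted p = 0.495 from limma) for KIF20B and -0.36 (adjusted p = 0.482) for KIF14. Without control replicate 1 that of KIF20B was -0.23, and without control replicate 3 that of KIF14 was -0.24. KIF23, the motor of the central spindle, had the most positive value of the group, 0.15. KIF11, the motor that pushes the spindle poles apart, was at 40.8, 23.9 and 27.9 CPM in control and 22.6, 31.0 and 19.4 CPM in overexpression cells, for a log2 fold change of -0.32 (95% interval -0.91 to 0.26). The groups of KIF11 overlapped, and control replicate 1 was its highest library. KIF2C, which takes microtubules apart at centromeres, KIF4A, a motor of chromosome arms, and KIF20A, a motor of the central spindle, had values of -0.14, -0.19 and 0.055.

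The 6 kinetochore and centromere genes were divided, with 3 below 0 and 3 above, and a median of 0.022. CENPF (ENSG00000117724, chr1:214603185-214664574 on GRCh38), a large kinetochore protein that accumulates in G2, was at 576, 442 and 684 CPM in control replicates 1, 2 and 3 and at 372, 385 and 418 CPM in overexpression replicates 1, 2 and 3. All overexpression libraries were below all controls, with control replicate 2 the closest to them. The log2 fold change was -0.51 (95% interval -0.99 to -0.037), with an unadjusted p of 0.0375 and an adjusted p of 0.341 from limma. CENPA, the histone H3 variant that marks centromeres, was at 56.8, 66.2 and 53.0 CPM in control and 55.4, 51.6 and 96.9 CPM in overexpression cells. The value of overexpression replicate 3 was the highest of the 6 libraries for this gene, and without it the log2 fold change of CENPA turned from 0.16 to -0.13. CENPE, the kinetochore motor, was at 139.6, 107 and 145 CPM in control and 123, 116 and 88.7 CPM in overexpression cells, with overlapping groups and a log2 fold change of -0.26. NDC80 and NUF2, which together bind the microtubule end, had values of -0.044 and 0.088, and HJURP, the chaperone that loads CENPA, had 0.14. Exons of CENPA overlap those of SLC35F6 on the same strand in the annotation.

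**Figure D4:**
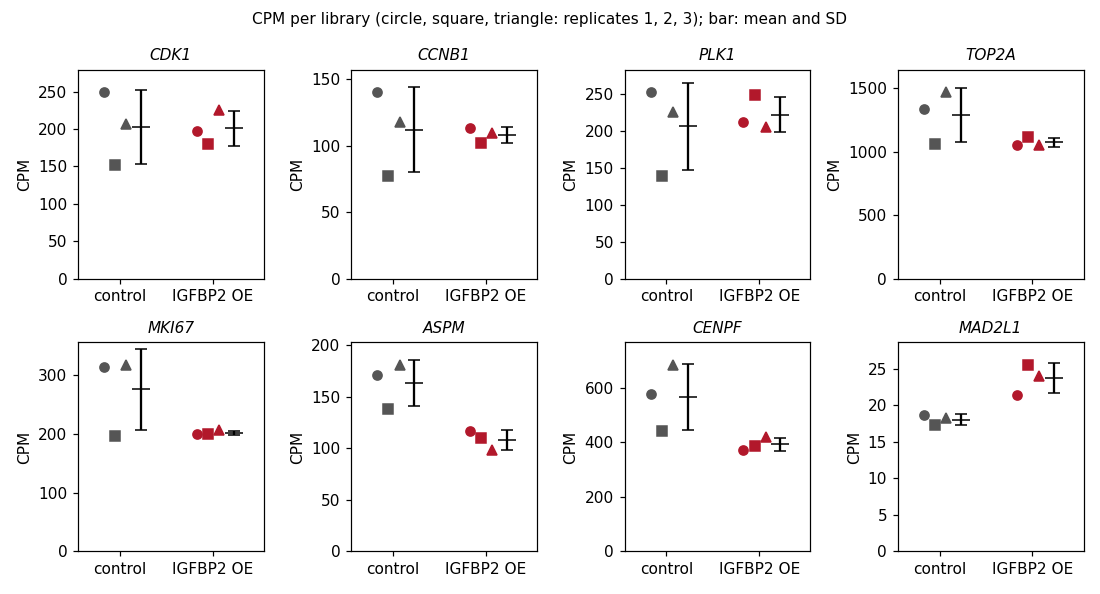
CPM of 8 members in each library, with circles, squares and triangles for replicates 1, 2 and 3 and bars for the mean and SD of each group (n = 3). The groups overlap for CDK1, CCNB1, PLK1, TOP2A and MKI67, and do not overlap for ASPM and CENPF (overexpression below) and MAD2L1 (overexpression above).

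Of the 8 genes of the spindle checkpoint and anaphase, 6 had a fold change above 0, with a median of 0.015. MAD2L1 (ENSG00000164109, chr4:120055623-120066858 on GRCh38), the checkpoint protein that holds back CDC20, was at 18.6, 17.2 and 18.2 CPM in control and 21.4, 25.5 and 24.0 CPM in overexpression cells. It was the 1 member whose overexpression libraries were all above the controls (2.08%, against 9.43% of all genes). Its log2 fold change was 0.37 (95% interval -0.025 to 0.76, adjusted p = 0.413 from limma), and it remained between 0.32 and 0.44 with any 1 library left out. BUB1B, the checkpoint protein BubR1, was at 38.0, 23.1 and 29.1 CPM in control and 26.5, 29.7 and 15.8 CPM in overexpression cells, and overexpression replicate 3 was its lowest library. Its log2 fold change was -0.33 (adjusted p = 0.678 from limma) and, without that library, -0.068. CDC20, which activates the anaphase promoting complex, had a log2 fold change of 0.02, and PTTG1, which codes for securin, the guard of sister chromatid cohesion, one of 0.24. BUB1, the kinase that recruits checkpoint proteins, was at 38.6, 37.27 and 35.2 CPM in control and 36.6, 32.3 and 27.9 CPM in overexpression cells, a difference of -0.20 on the log2 scale with overlapping groups. TTK, the kinase that starts the checkpoint, BUB3, a partner of BUB1 and BUB1B, and UBE2C, a ubiquitin conjugating enzyme of the anaphase promoting complex, were close to 0, at 0.011, 0.028 and 0.0027.

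Of the 4 genes of the chromosomal passenger complex, which corrects faulty attachments, 3 had a fold change below 0 and the median was -0.095. CDCA8, which codes for the subunit borealin, had the most negative value, -0.16 (adjusted p = 0.861 from limma). It was at 218, 113 and 169 CPM in control and 164, 161 and 114 CPM in overexpression cells, so the spread within either group exceeded the difference between them. AURKB, the kinase of the complex, was at 155, 97.4 and 176 CPM in control and 124, 147 and 165 CPM in overexpression cells, with overlapping groups and a log2 fold change of 0.061. INCENP, its scaffold, and BIRC5, which codes for survivin, had values of -0.10 and -0.086.

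All 3 cytokinesis genes had a fold change below 0, with a median of -0.23. ANLN, which codes for anillin, a scaffold of the contractile ring, was at 165, 65.4 and 129 CPM in control and 114, 90.4 and 65.7 CPM in overexpression cells. The control libraries of ANLN spanned 1.33 on the log2 scale, and its log2 fold change of -0.35 had a 95% interval from -1.14 to 0.44. It was -0.067 without control replicate 1, -0.73 without control replicate 2 and -0.14 without overexpression replicate 3. ECT2, the exchange factor that activates RhoA at the division plane, was at 47.1, 43.1 and 71.6 CPM in control and 49.5, 42.3 and 42.7 CPM in overexpression cells. Its value of -0.23 rested on control replicate 3, without which it was -0.01. PRC1, which crosslinks the central spindle, was at 158, 105 and 105 CPM in control and 127, 102 and 94.3 CPM in overexpression cells, with a log2 fold change of -0.17, and control replicate 1 was its highest library.

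Of the 3 genes of chromosome structure, 2 had a fold change below 0, with a median of -0.25. MKI67 (ENSG00000148773, chr10:128096659-128126423 on GRCh38), which codes for the Ki-67 protein of the mitotic chromosome surface and is widely used as a proliferation marker, was at 313, 196 and 317 CPM in control replicates 1, 2 and 3 and at 200.0, 199 and 206 CPM in overexpression replicates 1, 2 and 3. The overexpression values were slightly above control replicate 2 and below the other controls. Its log2 fold change was -0.42 (95% interval -0.93 to 0.10, adjusted p = 0.478 from limma). TOP2A, the topoisomerase that untangles sister chromatids, was also near control replicate 2 in overexpression cells, at 1337, 1057 and 1471 CPM in control and 1054, 1116 and 1056 CPM in overexpression cells, with a log2 fold change of -0.25 (adjusted p = 0.645 from limma). That of TOP2A was -0.14 without control replicate 3 and -0.38 without control replicate 2. SMC4, a condensin subunit, had a value of 0.08.

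**Figure D5:**
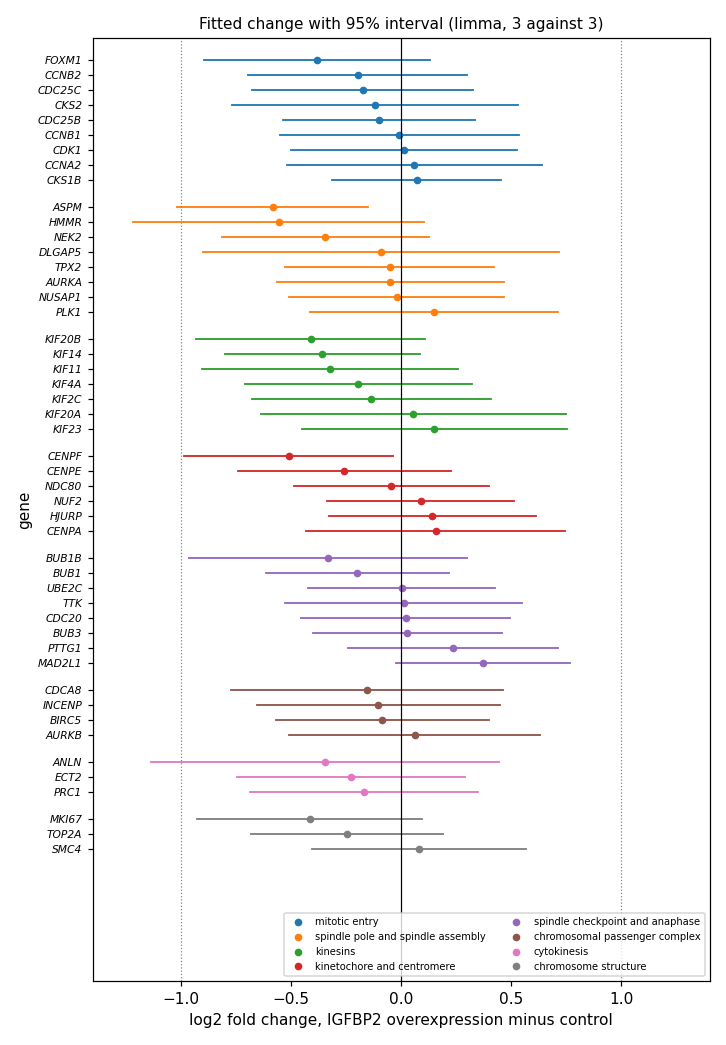
Log2 fold change of each member, IGFBP2 overexpression minus control, with its 95% interval from limma (3 against 3), coloured by role, and dotted lines at 1 and -1. The intervals of ASPM and CENPF exclude 0, and those of ASPM, HMMR and ANLN reach past -1.

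These data bounded the size of a difference in most members. The 95% interval reached 0.38 to 0.81 to either side of the fitted log2 fold change, with a median of 0.51. For 45 of the 48 members the whole interval lay within 1 log2 unit, a 2-fold difference, in either direction, and ASPM, HMMR and ANLN were the exceptions. With 3 libraries a group, smaller differences within these intervals could have been missed.

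The median fold change was lower in members with long transcripts. The 12 members with the longest annotated transcripts, from 4731 to 12716 bases and including MKI67, ASPM, CENPF, CENPE and KIF14, had a median log2 fold change of -0.34, with 9 below 0. The 3 above 0 were MAD2L1, the highest of all 48 members at 0.37, SMC4 and BUB3. The other 36 had a median of -0.051, with 22 below 0. Across the 48 members, which share the same 6 libraries, Spearman's rho between transcript length and log2 fold change was -0.50, and across the 10462 genes with a length it was -0.13. All 3130 genes at least 4731 bases long had a median of -0.070, and the 7332 shorter ones a median of 0.030. Without control replicate 2 the medians of the long and other members were -0.49 and -0.24, and without control replicate 1 they were -0.21 and 0.090. This split was made after the values were seen, and whether length itself bears on the values was not tested.

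Other genes of the cell cycle gave no call with limma either, while CCND1, described below, passed with limma voom. Of 117 further mitosis genes measured, none passed the threshold with limma or limma voom, 3 were higher and 3 lower at an unadjusted p under 0.05 (against 6.88% and 6.12% of all genes), and the median log2 fold change was 0.0091. Their nearest to the threshold was E2F7, a repressor of E2F target genes, at 6.44, 5.01 and 6.87 CPM in control and 2.34, 2.58 and 1.64 CPM in overexpression cells. Each read stood for 0.39, 0.32 and 0.33 CPM in overexpression replicates 1, 2 and 3, so those values rested on few reads. All overexpression libraries of E2F7 were below all controls, with a log2 fold change of -1.16 (95% interval -1.62 to -0.69) and an adjusted p of 0.0503 from limma, which ran from 0.0492 to 0.214 over the 16 alternative fits. MIS12, a kinetochore subunit, had a log2 fold change of 0.78 (adjusted p = 0.186 from limma), and CDC23, a subunit of the anaphase promoting complex, one of 0.58 (adjusted p = 0.260).

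The 58 genes of G1/S and DNA replication had no call with limma or limma voom, with 3 higher and 1 lower at an unadjusted p under 0.05 (against 6.88% and 6.12% of all genes) and a median of 0.067. PCNA, the sliding clamp of DNA polymerases, was at 172, 117 and 134 CPM in control and 200.4, 206 and 202 CPM in overexpression cells, without overlap (log2 fold change 0.54, adjusted p = 0.294 from limma). CCNE1, cyclin E1, had a log2 fold change of 0.62 and RFC3, a clamp loader subunit, one of -0.60, with adjusted p of 0.329 and 0.301 from limma. Control replicate 2 was the lowest control in 40 of the 58 genes and in 81 of the 117 other mitosis genes (against 32.4% of all genes). The dip was therefore not seen in the 48 members alone.

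Among 19 measured brakes and G1 regulators, none passed the threshold with limma, and CCND1 alone passed with limma voom (1.34% of all genes did). With limma 2 were higher at an unadjusted p under 0.05 (against 6.88% of all genes) and the median was -0.00062. Control replicate 2 was the lowest control in 6 of the 19 (against 32.4% of all genes). The mean of this list was 5.92, 5.81 and 5.86 in the controls and 5.99, 5.93 and 5.83 in overexpression cells. Control replicate 2 was thus its lowest library too, by a small margin. CCND1, cyclin D1, which carries growth factor signals to the G1 kinases, was at 150.3, 133 and 94.2 CPM in control and 267, 272 and 219 CPM in overexpression cells. Its groups did not overlap, and the log2 fold change was 1.02 (95% interval 0.51 to 1.53, adjusted p = 0.106 from limma). CCND3, cyclin D3, was at 41.3, 36.2 and 55.0 CPM in control and 70.2, 72.3 and 67.3 CPM in overexpression cells, also without overlap (log2 fold change 0.67, adjusted p = 0.229 from limma). CDKN2B, an inhibitor of the same kinases, had a log2 fold change of -0.65 (adjusted p = 0.392 from limma). Over the 16 alternative fits the adjusted p of CCND1 ran from 0.00960 to 0.346, and it passed the threshold with a mean-variance trend, with limma voom and with a pseudocount of 5.

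Reads of 17 members could be shared with exons of other annotated genes that overlap theirs, in 4 of them on the same strand, and whether the counting used strand was not given in the sources used here. In 13 members, named pseudogene copies, 27 in all, could take or give reads.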

How the data were processed

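Total RNA from 3 control and 3 IGFBP2 overexpression replicates was sequenced from the 3' end. The authors demultiplexed and trimmed the reads, aligned them to hg38, counted them per gene with htseq-count (version 0.9.1 per the labels) and used edgeR for scaling. Genes averaging over 5 CPM in 1 or both conditions were kept by the authors and deposited as log2(CPM + 1). In these deposited log2 values 100% of entries were whole multiples of 1 read (tolerance 0.001), so reads could be recovered. The libraries held 2497353 to 4579587 reads in the table.

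limma (version 3.58.1, R 4.3.3) was fitted to all 10487 genes at once, without a mean-variance trend, and group was its single term. Tests were two-sided, with Benjamini-Hochberg adjustment at 0.05. limma was planned because the deposited unit is log2. A count test such as the edgeR of the authors was not run on the recovered reads, which limma voom used. Fold changes are on the log2(CPM + 1) scale, which understates those of low genes. Groups came from the labels, and p-values measure the spread between these replicates. The members, the lists and the rule for named genes were chosen with earlier results of these data known, so no list was tested as a set.

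Symbols, positions and canonical transcript lengths came from GENCODE 44 on GRCh38, and 10462 of 10487 identifiers matched. Genes given in full are IGFBP2, textbook genes of each step, CKS1B and CKS2, and in each role the member with the smallest p and that with the largest change. In the other lists the 3 genes with the smallest p are named. The other members are given by their fold changes, and NEK2, HMMR, DLGAP5, CDC25B, KIF11, CENPE, BUB1, AURKB and PRC1 also by library, chosen after their values were seen. As alternatives, the fit was repeated with other scalings and pseudocounts, with a trend or voom weights, above a mean of 10 CPM, with replicate number as a block, and without each library. The fits were tested on simulated data with the same spread setting for all genes. There limma called 22% of 1.5-fold, 82% of 2-fold and 100% of 4-fold increases. In the data the spread differed from gene to gene, so these shares do not give the power for the members and may overstate it. Promoter windows are those of RefSeq.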

Additional observations from a re-analysis of the deposited data

How the results depend on the processing

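None of the 48 members passed the threshold in any of the 16 alternative fits, and IGFBP2 passed it in all 16, with a log2 fold change between 2.35 and 2.97 when 1 library was left out. Of 304 comparisons of a named member with an alternative, 290 kept the direction and the side of the threshold and 14 took the other sign, in 7 members whose values lie near 0. CCNB1 became 0.014 with upper quartile scaling. When single libraries were left out, the value ran from -0.25 to 0.17 for CCNB1, from -0.18 to 0.18 for CDK1, from -0.11 to 0.32 for PLK1, from -0.27 to 0.12 for AURKA, from -0.31 to 0.15 for CKS2, from -0.13 to 0.32 for CENPA and from -0.41 to 0.062 for CDCA8. The median of the members ran from -0.26 to 0.047 and the mean difference over members from -0.27 to -0.0018. Members at an unadjusted p under 0.05 were 5 with limma voom (10.4%, against 13.3% of all genes) and 5 with a mean-variance trend. With 1 library left out they were 1 to 7. The 7 were without control replicate 2, all lower in overexpression cells (14.6%, against 5.48% of all genes). For the trend and the other left-out fits the share of all genes was not worked out, so those counts are not read as a result. Among the other lists, 1 brake or G1 regulator (CCND1) passed with the trend, with limma voom and with a pseudocount of 5, and 1 other mitosis gene (E2F7) passed with median of ratios scaling. The cause of these moves was not tested, beyond the fewer samples of each left-out fit.

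The replicate numbers were not treated as pairs in the main fit. Libraries with the same number deviated from their group means with correlations of 0.17, -0.064 and 0.084. These values cannot show whether such libraries were prepared together. With the replicate block there were 0 members past the threshold and 2 at an unadjusted p under 0.05, and the median was -0.096. The share of all genes in that fit was not worked out. A fit with no filter at all could not be made, since the authors had filtered the genes. With 3 libraries a group and 28 to 6022 reads a member, the width of the intervals limits what could be seen.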
